A study of Arabidopsis thaliana with 9 samples.

Results

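PDF1.2 and PDF1.2b are plant defensin genes of Arabidopsis thaliana, and their transcript levels were followed across 9 arrays of the wild type and of seedlings low in vitamin C (ascorbate). They were found as the probe sets annotated to the loci AT5G44420 (PDF1.2, probe set 249052_at) and AT2G26020 (PDF1.2b, probe set 257365_x_at), which gives 2 of the 22810 probe sets on the array. The genes were picked because earlier results on the same arrays had set them apart from the wild type, so their differences from it are given here as a description and not as a test. The ending x_at marks a probe set whose probes can also match transcripts other than its own, and the near-identical defensins of this family are among the candidates. A value printed for PDF1.2b may therefore hold signal of PDF1.2 or of a close relative, and both genes may not be separate results.

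Plant defensins are small secreted proteins held together by disulphide bonds, and several of them slow the growth of fungi. PDF1.2 is the standard marker of the branch of the jasmonate response that jasmonate and ethylene switch on together, through transcription factors of the ERF family such as ORA59 and ERF1. A separate branch, run by MYC2 and its relatives, is driven by jasmonate in wounded or chewed leaves and holds the PDF1.2 branch down, and salicylate also lowers PDF1.2.

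The samples were whole seedlings grown for 14 days on agar plates, with 3 arrays per genotype. The genotypes were the wild type Col-0, the mutant vtc1-1 and the mutant vtc2-1. Plants make ascorbate from GDP-mannose, which the VTC1 enzyme produces, and VTC2 catalyses a later step of the same pathway, the release of galactose 1-phosphate from GDP-L-galactose. The labels give a Col-0 background and an origin in EMS mutagenesis for vtc2-1, give neither for vtc1-1, name a single line for each mutant and do not say whether the replicates were separate sowings, so that any p-value measures only the spread between these samples. No seedling was treated with jasmonate, ethylene or a pathogen according to the labels.

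Total RNA was hybridised to Affymetrix ATH1 arrays, and the values are MAS5 signals, a brightness on a linear scale that the authors had set to a common level on every array, with array medians of 43.02 to 45.21. Precision is limited by the small number of arrays. In whole seedlings, fewer cells that express a gene and less RNA per cell cannot be told apart. RCA, the leaf protein Rubisco activase, was the only 1 of 5 leaf markers with a probe set named here and had signals of 5751 to 8376. PYK10, a root beta-glucosidase and likewise 1 of 5 for root, had 1726 to 4406. Both markers were thus bright in every sample, and each organ rests on 1 marker. PYK10 was lower in all 3 vtc1-1 arrays (1726 to 2318) than in all 3 Col-0 arrays (2465 to 3001), a log2 difference of -0.42 ± 0.25 (SE, limma adjusted p = 0.998), which did not pass the test. In vtc2-1 it gave 4238, 4406 and 2086, overlapping with Col-0 at a log2 difference of 0.34 ± 0.25, and between the mutants it was 0.75 ± 0.25 higher in vtc2-1 (limma adjusted p = 0.998, unadjusted p = 0.00986). The part of PYK10 or of root tissue in the results below was not tested. Markers of flowers and seeds have no named probe set and were not analysed here. On the first principal component Col-0 replicate 3 scored 36.8, apart from Col-0 replicates 1 and 2 at -47.5 and -37.4. All mutant arrays lay in between, at -9.2 to 28.0. Values are also given without Col-0 replicate 3, which leaves only Col-0 arrays that lie on 1 side of all mutant arrays on this component.

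PDF1.2b was dim in every wild-type array and brighter in every mutant array. Its signal was 13.1, 15.7 and 18.7 in Col-0 replicates 1, 2 and 3, which placed it at percentiles 23.6, 27.7 and 31.2 of the array. In vtc1-1 the signals were 83.8, 97.0 and 386.2, at percentiles 66.9, 70.9 and 92.7. In vtc2-1 they were 46.0, 104.0 and 83.9, at percentiles 50.7, 72.4 and 66.9. The wild-type and mutant arrays did not overlap, and vtc1-1 replicate 3 stood far above the other vtc1-1 arrays.

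Mean signals of PDF1.2b were 15.8 ± 2.82 for Col-0, 189.0 ± 170.9 for vtc1-1 and 77.9 ± 29.5 for vtc2-1 (SD, n = 3 each). On the log2 scale vtc1-1 lay 3.22 ± 0.49 above Col-0 and vtc2-1 lay 2.24 ± 0.49 above it (SE of the limma coefficient). All 3 Col-0 signals lay below the 40th percentile of their arrays, so the size of these differences is uncertain. Both comparisons used the same Col-0 arrays.

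PDF1.2 was brighter than in every wild-type array in all 3 vtc1-1 arrays and in 2 of the 3 vtc2-1 arrays. In Col-0 its signal was 28.9, 3.11 and 27.1 in replicates 1, 2 and 3, at percentiles 38.9, 11.7 and 38.6. The vtc1-1 arrays gave 40.3, 38.2 and 92.6, at percentiles 47.9, 46.6 and 69.6, and the vtc2-1 arrays gave 6.39, 38.9 and 39.7, at percentiles 17.1, 46.1 and 47.2. All vtc1-1 arrays lay above all Col-0 arrays, whereas the vtc2-1 arrays overlapped with Col-0 because replicate 1 was low.

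Mean signals of PDF1.2 were 19.7 ± 14.4 for Col-0, 57.0 ± 30.8 for vtc1-1 and 28.3 ± 19.0 for vtc2-1 (SD, n = 3 each). The log2 difference from Col-0 was 1.96 ± 0.90 in vtc1-1 and 0.67 ± 0.90 in vtc2-1 (SE), again measured from Col-0 signals that all lay below the 40th percentile of their arrays. The value in vtc1-1 went down to 0.90 without Col-0 replicate 2, the array with the signal of 3.11, and was 2.46 without Col-0 replicate 3. The value in vtc2-1 turned to -0.38 without Col-0 replicate 2 and was 1.55 without vtc2-1 replicate 1. A single dim array thus moved the size of the PDF1.2 difference in both mutants and its direction in vtc2-1.

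**Figure D1:**
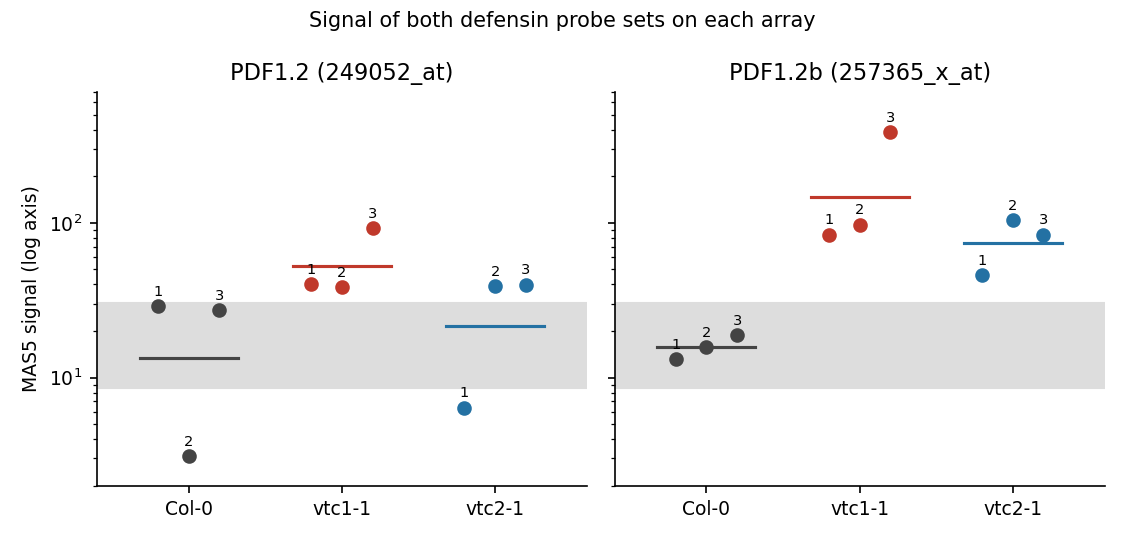
MAS5 signal (log axis) of PDF1.2 and PDF1.2b on each of the 9 arrays, by genotype, with the replicate number above each point and a bar at the geometric mean of the 3 arrays. The grey band runs from the lowest 20th to the highest 40th percentile of the arrays. PDF1.2b lies inside the band in Col-0 (13.1 to 18.7) and above it in all mutant arrays (46.0 to 386.2), whereas PDF1.2 falls below the band in Col-0 replicate 2 (3.11) and vtc2-1 replicate 1 (6.39).

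Such separations were also counted over all tested probe sets. Mutant arrays lay wholly above the Col-0 arrays at 4.36% of the tested probe sets in vtc1-1, where both defensins did so, and at 6.27% in vtc2-1, where PDF1.2b did so and PDF1.2 did not. They lay wholly below at 3.58% and 4.52%. With all 9 arrays limma called 0% of the tested probe sets at an adjusted p under 0.05 in vtc1-1 (0 of 14603) and 0.00685% in vtc2-1 (1 of 14603). An unadjusted p under 0.05 was reached by 603, or 4.13%, in vtc1-1 and by 6.28% in vtc2-1. Without Col-0 replicate 3 limma called 0.322% (47) in vtc1-1 and 0.835% (122) in vtc2-1. Nothing about the defensins is read from these shares, since the genes were picked on these contrasts. Both defensins also entered the tested set through mutant arrays only, as no Col-0 signal of either exceeded its array's 40th percentile. For the same reason no test result of their own is given in either setting.

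Because the Col-0 signals of PDF1.2b lay low on the array, the size of its difference depends on how dim signals are handled. With all signals below an array's 40th percentile raised to that percentile, a setting chosen after the data were seen, PDF1.2b lay 2.33 above Col-0 in vtc1-1 and 1.34 above it in vtc2-1 on the log2 scale, and PDF1.2 lay 0.84 and 0.29 above it. PDF1.2b was 2.53 above Col-0 in vtc1-1 without vtc1-1 replicate 3, the array with the signal of 386.2, and between 1.99 and 2.58 above it in vtc2-1 when any 1 array was left out. Without Col-0 replicate 3 the PDF1.2b differences were 3.35 ± 0.52 and 2.36 ± 0.52 (SE). Col-0 replicate 3 itself had a PDF1.2b signal of 18.7, the highest of the wild type and below the lowest mutant array at 46.0. Leaving it out could therefore only raise these differences.

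**Figure D2:**
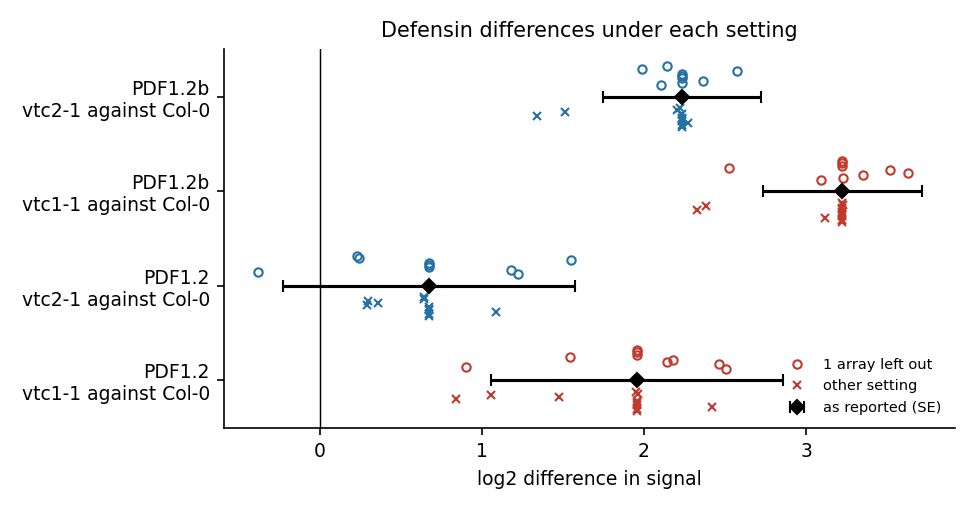
Log2 difference from Col-0 of each defensin as reported (black diamond, bar is the SE), with 1 array left out (open circles) and under each other setting (crosses). The values of PDF1.2b run from 1.34 to 3.63, and the PDF1.2 values in vtc2-1 run from -0.38 to 1.55.

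Between the mutants, both defensins had higher mean signals in vtc1-1 than in vtc2-1, but neither difference passed the test. The vtc2-1 value of PDF1.2b lay at -0.99 ± 0.49 relative to vtc1-1 on the log2 scale (SE, 95% interval -2.05 to 0.07, limma adjusted p = 0.998, unadjusted p = 0.0645), and the arrays of both mutants overlapped between 83.8 and 104.0. For PDF1.2 it was -1.28 ± 0.90 (SE, 95% interval -3.24 to 0.67, limma adjusted p = 0.998), again with overlap. Over 20 alternative settings the adjusted p was at least 0.828 for PDF1.2b and at least 0.849 for PDF1.2. Of the 14603 probe sets, 0.00685% (1) were called in this comparison. The intervals include both no difference and a difference of several fold, so the order of vtc1-1 above vtc2-1 is not established for either gene, and this comparison shares its arrays with those on which the genes were picked.

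The replicates of 1 genotype differed in their defensin signal more than in most other transcripts, except for PDF1.2b in Col-0. In vtc1-1 the SD of log2 signal was 1.22 for PDF1.2b, larger than at 98.6% of the tested probe sets, whose median SD was 0.23. Here replicate 3 gave 386.2, against 83.8 and 97.0 in the other arrays. The vtc2-1 arrays gave 0.61 for PDF1.2b (larger than at 90.8%), and Col-0 gave 0.26, which was below the Col-0 median of 0.29. PDF1.2 scattered widely in every genotype, with SDs of 1.83 for Col-0, 0.72 for vtc1-1 and 1.51 for vtc2-1, each larger than at 94.8% or more of the tested probe sets. The widest of these spreads belonged to the groups that held signals of 3.11 and 6.39, and the part of low brightness in them was not tested.

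The array order within the mutants ran alike in both genes at its ends. The highest of the 9 signals was in vtc1-1 replicate 3 for both, and the lowest mutant signal was in vtc2-1 replicate 1 for both. In Col-0 the order differed, with replicate 2 lowest for PDF1.2 and replicate 1 lowest for PDF1.2b. Across the 9 arrays, which fall into genotypes, the log2 signals of both probe sets correlated at a Pearson r of 0.65 and a Spearman rho of 0.73. This is a description, and the probe sets may detect some of the same transcripts. Of the other 14602 tested probe sets, 3.23% followed PDF1.2 more closely than PDF1.2b did, and 3.74% followed PDF1.2b more closely than PDF1.2 did.

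The other defensins that could be tested overlapped between wild type and mutants. Of 15 defensin genes listed, 12 have a probe set named here and 6 were bright enough to be tested, PDF1.2 and PDF1.2b included. PDF1.2c and PDF1.3, the closest relatives, have no named probe set and were not analysed here, and PDF1.2c is the next gene after PDF1.2 on chromosome 5 as PDF1.3 is next to PDF1.2b on chromosome 2 (TAIR10.1 gene order). None of the 4 other tested members was called, and 2 of them had values above 0 in each mutant, with a median log2 difference of 0.05 in vtc1-1 and -0.07 in vtc2-1. Over all tested probe sets these medians were 0.01 and 0.01. Without Col-0 replicate 3, 3 of the 4 lay above 0 in vtc1-1 and all 4 in vtc2-1, none called, with medians of 0.38 and 0.39 against -0.02 and -0.01 over all tested probe sets. The tally of the other defensins thus rests on 1 wild-type array.

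PDF1.4 had signals of 52.8, 46.1 and 177.5 in Col-0, 93.0, 101.5 and 63.6 in vtc1-1 and 36.4, 34.6 and 129.4 in vtc2-1. Its highest array was Col-0 replicate 3, the groups overlapped, and the log2 differences were 0.16 ± 0.54 and -0.47 ± 0.54 (SE, limma adjusted p = 0.998 and 0.891). PDF2.2 (LCR69 in the gene table), with signals of 586 to 1282, differed by 0.00 ± 0.27 in vtc1-1 and 0.05 ± 0.27 in vtc2-1. PDF2.3 (LCR68), at 240.1 to 546.8, differed by 0.11 ± 0.26 and 0.40 ± 0.26, and PDF2.5, at 19.3 to 93.9, by -0.63 ± 0.47 and -0.20 ± 0.47. PDF1.4, PDF2.2 and PDF2.5 had their highest signal of all 9 arrays in Col-0 replicate 3, and without that array PDF1.4 differed by 0.77 ± 0.45 and 0.15 ± 0.45 and PDF2.5 by -0.07 ± 0.44 and 0.35 ± 0.44. PDF2.2 (LCR69) then differed by 0.36 ± 0.18 and 0.42 ± 0.18, and PDF2.3 (LCR68) by 0.41 ± 0.21 and 0.70 ± 0.21. All 4 genes moved upwards in both mutants without Col-0 replicate 3, PDF1.4 and PDF2.5 turning direction in vtc2-1 and PDF2.2 in vtc1-1, and none passed the test with or without that array.

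The remaining 6 listed defensins with a probe set were too dim to test. PDF1.1 (LCR67) had signals of 0.59 to 2.42, below the 20th percentile on every array. PDF2.1 reached 43.6 on its brightest array and was above the 40th percentile on that array only. PDF2.4, PDF2.6, PDF3.1 and PDF3.2 stayed below the 40th percentile on all arrays, with highest signals of 22.1, 15.7, 21.4 and 19.5.

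**Figure D3:**
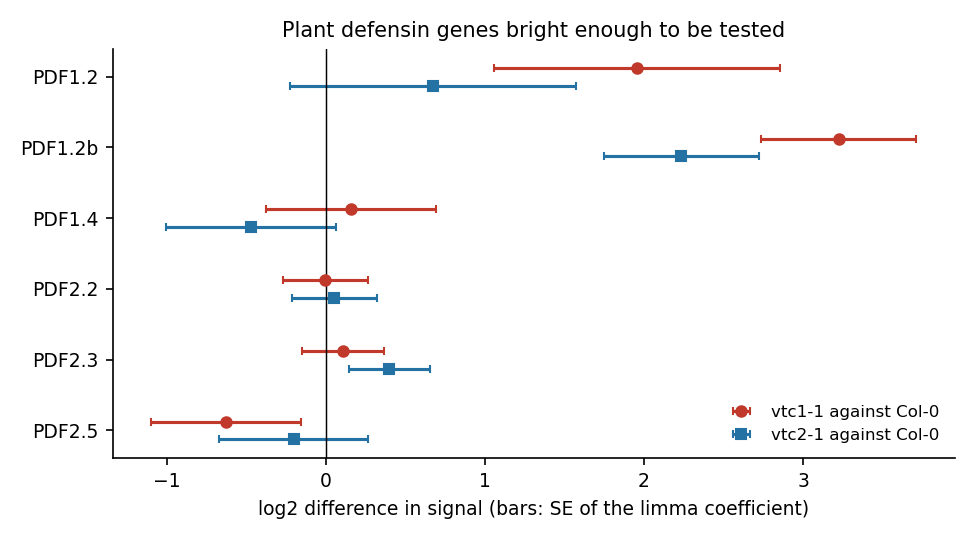
Log2 difference in signal from Col-0 for the 6 tested defensin genes, in vtc1-1 (circles) and vtc2-1 (squares), with the SE as bars. PDF1.2b lies at 3.22 and 2.24, PDF1.2 at 1.96 and 0.67, and the other 4 genes between -0.63 and 0.40 with all 9 arrays.

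The hormone pathways around PDF1.2 could be read at few points only. Of 95 listed genes of jasmonate, ethylene, salicylate and camalexin metabolism and signalling, 12 have a named probe set and 8 were tested. The lists of jasmonate perception with its JAZ repressors and of camalexin had no named probe set, and neither ORA59, ERF1, MYC2, VSP2 nor PR1 could be followed here. With the 4 other defensins this made 12 tested list genes, of which limma called 0 in either mutant, with 1 lower in each mutant at an unadjusted p under 0.05. Over all tested probe sets 1.87% in vtc1-1 and 2.62% in vtc2-1 were lower at that threshold. The median log2 difference of the 12 was 0.01 in vtc1-1 and -0.16 in vtc2-1, and 6 and 4 of them lay above 0. Without Col-0 replicate 3 the medians were -0.01 and 0.19 with 6 and 7 above 0, so the direction in vtc2-1 turned with that array.

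Jasmonate turnover held the widest gap among these genes. JOX2 (AT5G05600) encodes an oxygenase that hydroxylates jasmonic acid and so takes it out of the active pool. It gave signals of 111.1, 103.3 and 59.8 in Col-0, 29.8, 23.7 and 8.12 in vtc1-1 and 58.3, 53.1 and 66.8 in vtc2-1. The vtc1-1 arrays lay below every other array. Over all tested probe sets 3.58% lay wholly below Col-0 in vtc1-1. The array with the highest signal of both defensins, vtc1-1 replicate 3, had the lowest JOX2 signal. However, vtc2-1 replicate 1, the lowest mutant array for both defensins, had a JOX2 signal of 58.3, between those of the other vtc2-1 arrays. A link between JOX2 and the defensins was not tested. The log2 difference of AT5G05600 was -2.30 ± 0.42 in vtc1-1 (SE, limma adjusted p = 0.615) and -0.58 ± 0.42 in vtc2-1 (limma adjusted p = 0.828), so it passed in neither with all arrays. Its signal in vtc1-1 replicate 3 lay below the 20th percentile of the array, and the value in vtc1-1 ranged from -2.67 to -1.57 over 20 alternative settings. In vtc1-1 it passed without Col-0 replicate 3, at -2.58 ± 0.44 (limma adjusted p = 0.0266), the only 1 of those settings under the threshold, over which the adjusted p ranged from 0.0266 to 1. That array had the lowest wild-type signal of AT5G05600 (59.8), so leaving it out could only widen the gap. In that setting 0.322% (47) of all tested probe sets were called in vtc1-1. Between the mutants AT5G05600 differed by 1.72 ± 0.42, higher in vtc2-1 (limma adjusted p = 0.998).

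JOX4 (AT2G38240), a relative of the same function, had signals of 40.2, 17.7 and 25.7 in Col-0, 39.5, 47.3 and 23.1 in vtc1-1 and 20.3, 7.72 and 38.0 in vtc2-1, with overlap throughout. Its log2 differences were 0.41 ± 0.59 and -0.54 ± 0.59 (SE). JOX1 and JOX3 were too dim to test, with no array above its 40th percentile. In vtc1-1 the values of JOX2 and JOX4 thus lay on opposite sides of 0.

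OPCL1, a CoA ligase of jasmonate synthesis, had signals of 106.4, 110.1 and 205.0 in Col-0, against 96.2 to 117.4 in vtc1-1 and 119.6 to 148.2 in vtc2-1. Col-0 replicate 3 was its highest array, and the log2 differences were -0.36 ± 0.24 and 0.03 ± 0.24, or -0.05 ± 0.19 and 0.34 ± 0.19 without that array. MYC3 and MYC4, transcription factors of the branch that opposes PDF1.2, differed by 0.13 ± 0.17 and 0.03 ± 0.24 in vtc1-1 and by -0.26 ± 0.17 and -0.05 ± 0.24 in vtc2-1 (SE). Their groups overlapped in both comparisons with Col-0.

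EIN3, the transcription factor through which ethylene acts on ERF1, had signals of 432.2, 404.9 and 370.5 in Col-0, 344.7, 412.1 and 350.3 in vtc1-1 and 326.6, 294.3 and 337.0 in vtc2-1. All vtc2-1 arrays lay below all Col-0 arrays, at a log2 difference of -0.33 ± 0.15 (SE, limma adjusted p = 0.783), while vtc1-1 overlapped with Col-0 at -0.13 ± 0.15. Of all tested probe sets, 4.52% lay wholly below Col-0 in vtc2-1. THI2.1, a thionin induced by jasmonate, had signals of 36.6, 25.6 and 13.2 in Col-0, 18.3 to 19.5 in vtc1-1 and 1.07 to 11.0 in vtc2-1. All vtc2-1 arrays of THI2.1 lay below all its Col-0 arrays as well. THI2.1 exceeded its array's 40th percentile on 1 array only and was not tested. ERF96, an ERF of the PDF1.2 branch, stayed below the 40th percentile on every array.

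On the salicylate side, GRX480 encodes a glutaredoxin that salicylate induces and that lowers PDF1.2 when overproduced. It gave signals of 5.497, 11.9 and 66.8 in Col-0, 15.98, 3.55 and 5.72 in vtc1-1 and 25.0, 31.0 and 32.7 in vtc2-1. The wild-type range held both mutants except for the lowest vtc1-1 array. GRX480 differed by -1.25 ± 1.05 in vtc1-1 and 0.85 ± 1.05 in vtc2-1 (SE, limma adjusted p = 0.998 and 0.896), and without Col-0 replicate 3 by -0.23 ± 1.31 and 1.86 ± 1.31. SAG101, a lipase-like partner of EDS1 in immune signalling, differed by 0.07 ± 0.41 and -0.13 ± 0.41.

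**Figure D4:**
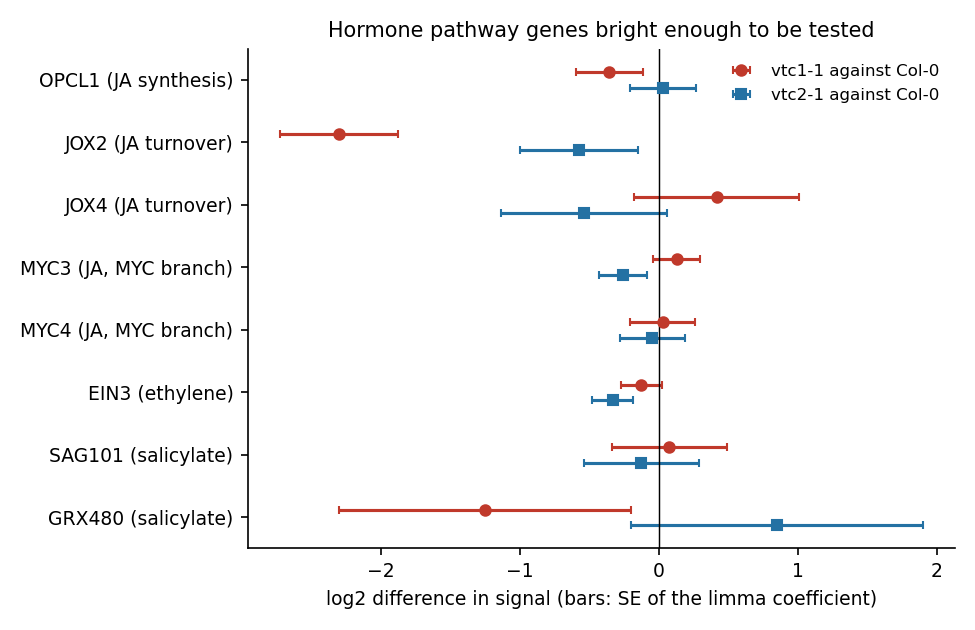
Log2 difference in signal from Col-0 for the 8 tested hormone pathway genes, in vtc1-1 (circles) and vtc2-1 (squares), with the SE as bars. JOX2 in vtc1-1 lies lowest at -2.30, GRX480 has the widest bars (SE 1.05), and the MYC and EIN3 values lie between -0.33 and 0.13.

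Genes with the most similar pattern over the 9 arrays were then named by the Pearson correlation of log2 signal, taking the 6 highest that name 1 gene. Closest to PDF1.2b were AT2G01630 (r = 0.967), the glycolytic enzyme TPI (0.953), the light-harvesting protein gene LHCB4.3 (0.942), AT3G23550 of the MATE transporter family (0.931), AT1G12845 (0.916) and AT5G58490 (0.898). The highest of the 9 signals was 1.33 times the lowest for TPI and 3.74 times for AT3G23550, with the other 4 in between. LHCB4.3 had signals of 78.6, 60.7 and 88.0 in Col-0, 117.8, 108.0 and 203.4 in vtc1-1 and 104.3, 142.0 and 131.7 in vtc2-1, all mutant arrays being above all Col-0 arrays. AT3G23550 had 58.0, 77.8 and 102.7 in Col-0, 175.9, 191.4 and 216.8 in vtc1-1 and 111.9, 158.1 and 146.9 in vtc2-1. All 6 had every mutant array above every Col-0 array and their highest signal in vtc1-1 replicate 3, as PDF1.2b did. They were chosen by their correlation with PDF1.2b over these same arrays, so this likeness follows from the choice. Over all tested probe sets 4.36% lay wholly above Col-0 in vtc1-1 and 6.27% in vtc2-1.

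Closest to PDF1.2 were AT4G30500 (r = 0.941), AT2G15000 (0.904), AT3G04480 (0.887), AT2G43420 (0.878), AT5G42320 (0.876) and AT1G23840 (0.872). None of them is among those closest to PDF1.2b. AT4G30500 had signals of 32.4, 19.0 and 36.9 in Col-0, 36.2, 38.0 and 54.1 in vtc1-1 and 26.0, 50.0 and 44.3 in vtc2-1. Its low arrays were Col-0 replicate 2 and vtc2-1 replicate 1, as for PDF1.2, and the genotypes overlapped. They are the highest among the 7896 of 14602 probe sets that name 1 gene, over 9 arrays, and they describe a pattern and nothing more.

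**Figure D5:**
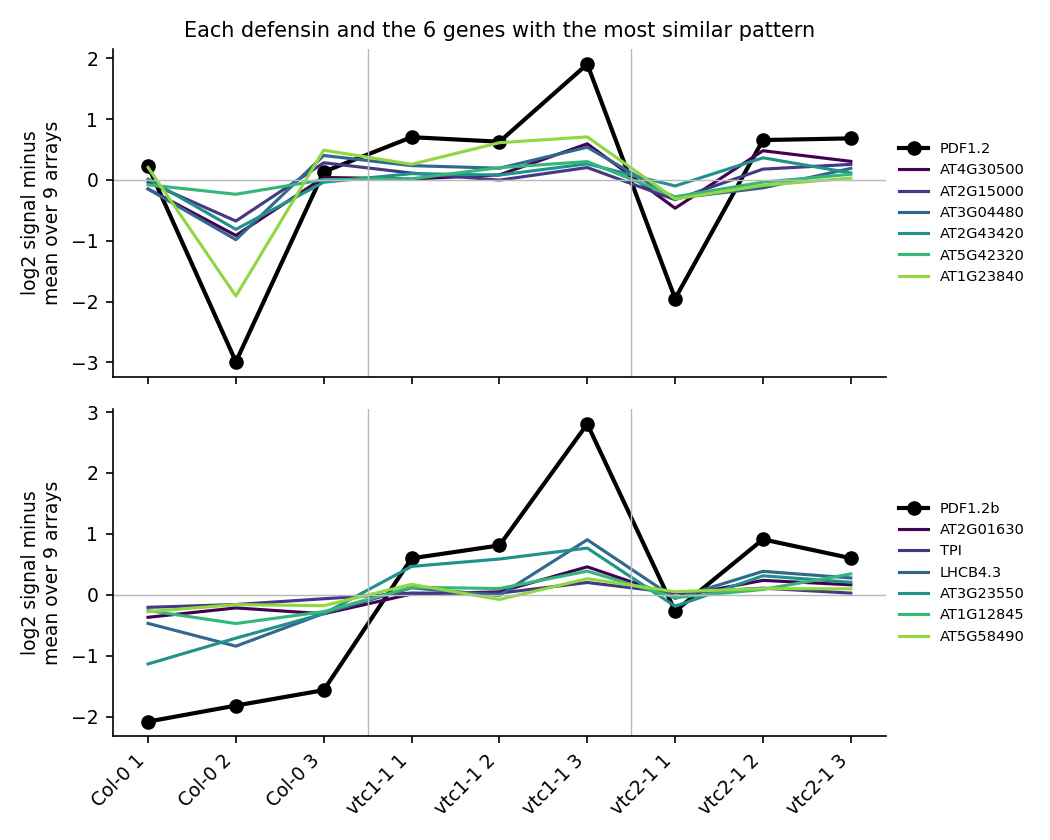
Log2 signal minus its mean over the 9 arrays, for PDF1.2 (top) and PDF1.2b (bottom) in black and for the 6 genes with the most similar pattern in colour; grey lines separate Col-0, vtc1-1 and vtc2-1. The PDF1.2 group dips at Col-0 replicate 2 and vtc2-1 replicate 1, and the PDF1.2b group is low in all Col-0 arrays with its peak at vtc1-1 replicate 3 in all 7 genes.

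The chromosomal neighbours were looked at last, by a rule added after the values were seen, as the 4 protein-coding genes on either side of each defensin. Around PDF1.2, 7 of 8 neighbours have a named probe set and 6 were tested, and around PDF1.2b 3 of 8 have one and 1 was tested. Of the 6, 4 had values above 0 in vtc1-1 and 5 in vtc2-1, and none was called in either. The median log2 difference over all tested probe sets was 0.01 in vtc1-1 and 0.01 in vtc2-1. AT5G44400, an oxidase of the berberine bridge enzyme-like family located 2 genes before PDF1.2, had signals of 55.3, 84.8 and 107.1 in Col-0, 127.5, 113.6 and 187.2 in vtc1-1 and 163.2, 165.6 and 170.0 in vtc2-1. Every mutant array lay above every Col-0 array, as at 4.36% of the tested probe sets in vtc1-1 and 6.27% in vtc2-1. The log2 differences of AT5G44400 were 0.81 ± 0.25 and 1.06 ± 0.25 (SE, limma adjusted p = 0.998 and 0.651), so neither passed. AT5G44410, the family member directly before PDF1.2, differed by 0.33 ± 0.24 and 0.56 ± 0.24. AT5G44390 differed by 0.53 ± 0.71 and 1.18 ± 0.71, AT5G44450 by 0.21 ± 0.23 and 0.37 ± 0.23, and the calmodulin-like gene CML43 by -0.34 ± 0.69 and -0.72 ± 0.69. AT5G44380 of the same family as AT5G44400 differed by -0.62 ± 0.47 and 0.12 ± 0.47 and had its highest signal in Col-0 replicate 3, at 538.1 against 106.2 and 126.5 in the other wild-type arrays. AT2G25980, the tested neighbour of PDF1.2b, differed by -0.04 ± 0.31 and -0.26 ± 0.31. Values without Col-0 replicate 3 are not given for the neighbours.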

How the data were processed

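Per the submitters' processing notes, the authors computed MAS5 signals (linear intensities) in GCOS. Their versions are not given in the sources used here. The deposited intensities have a trimmed mean (2% off each tail) of 100.009 on every array and were used with that scaling. Detection calls and probe-level data were not used here.

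Signals were log2 transformed without a pseudocount. A probe set was tested if it was no control and exceeded its array's 40th percentile on at least 3 of 9 arrays, which left 14603 of 22810. One model of group means over all arrays was fitted with limma 3.58.1 in R 4.3.3 (eBayes with intensity trend), with Benjamini-Hochberg adjustment over all tested probe sets and a threshold of 0.05. The procedure was run on simulated data in which the noise of each probe set and array was independent. That simulation held no array-wide deviation such as that of Col-0 replicate 3, so it cannot show how the procedure behaves with such an array. Figures used matplotlib 3.10.9.

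Names came from the platform annotation (13513 with 1 gene symbol, 503 with several, 8794 not listed, hence unnamed here), updated through the TAIR10.1 gene table. The files name no genome build, so no coordinates are given, and no sequences were used here. The members and lists were chosen with earlier results of these data known. Besides the members, the rule named all defensins with a probe set, up to 6 genes per pathway list by smallest p, and the 6 genes most correlated with each member.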

Additional observations from a re-analysis of the deposited data

How the results depend on the processing

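The differences of PDF1.2b from Col-0 stayed above 0 under all 20 settings tried, and those of PDF1.2 in vtc1-1 too. All these mutant arrays lay above all Col-0 arrays. Leaving out 1 array, a floor or a pseudocount could therefore not turn these signs. Settings that change only the filter, the spread estimate or the other mutant's arrays leave the difference the same by construction. PDF1.2 in vtc2-1 turned to -0.38 without Col-0 replicate 2. PDF1.2b moved to 2.33 in vtc1-1 and 1.34 in vtc2-1 with a floor at the 40th percentile, and to 1.51 in vtc2-1 with a pseudocount of 16, both of which raise the dim Col-0 signals by construction. Leaving out 1 array gave 2.53 to 3.63 for PDF1.2b and 0.90 to 2.51 for PDF1.2 in vtc1-1, 1.99 to 2.58 and -0.38 to 1.55 in vtc2-1, and -1.39 to -0.29 and -1.73 to -0.41 between the mutants. Counts of called probe sets ranged over the left-out arrays from 0 to 47 in vtc1-1 and from 0 to 122 in vtc2-1, the highest each without Col-0 replicate 3, and stayed at 1 between the mutants; called list genes ranged from 0 to 1 in vtc1-1 and were 0 otherwise. Without an intensity trend the count was 0 in vtc2-1 and 2 between the mutants, and with only the 2 groups compared it was 0 in vtc2-1; the cause was not tested. With the replicate number as a block the log2 differences of PDF1.2b were the same by construction (3.22 in vtc1-1 and 2.24 in vtc2-1), with 0, 1 and 1 calls as without it, so it moved no count of calls. The block lowered the SE of PDF1.2b from 0.488 to 0.381 and that of PDF1.2 from 0.900 to 0.843. Deviations from the group means of same-numbered arrays correlated at -0.074 to 0.199 (median 0.035). Arrays of other numbers and another genotype gave -0.223 to 0.12 (median -0.0125). As these ranges overlap, the numbers were not shown to pair the arrays. The dim Col-0 signals limit the size of the differences of these genes from Col-0.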
